A study of Mus musculus with 6 samples.

Results

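The genes of the type I and type II keratins lie in 2 clusters of the mouse genome. The peaks described here are those of the Grhl3 lists whose centre fell in a window set for either cluster on the mm9 build. The type I window ran from 98.9 to 100.2 Mb on chromosome 11 and the type II window from 101 to 102 Mb on chromosome 15. They held 39 of the 34098 peaks in 4 lists, 17 in the type I window and 22 in the type II window. Membership rested on position alone, and no score or overlap was used to choose a peak.

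Binding of Grhl3, a grainyhead-like transcription factor needed for the epidermal barrier, was mapped by chromatin immunoprecipitation and sequencing (ChIP-seq) with a custom antibody. Its libraries came from whole back skin of E16.5 embryos (2 replicates), from the epidermis of adult mice labelled day 4 depilation (1 library) and from that of adult mice in the imiquimod experiment (1 library). Depilation, the removal of hair, is a physical injury, and imiquimod, a Toll-like receptor agonist applied to skin, causes psoriasis-like inflammation. Adult epidermis was parted from dermis with dispase, and the embryonic samples were whole skin, so age, tissue and injury cannot be told apart between these groups. Strain, genotype, sex, imiquimod dose and the number of animals behind each library are not given in the labels, and 2 further libraries, 1 input without antibody for each age, were not analysed here. A peak is present in whole skin or epidermis as a whole, and fewer cells with a bound site and less binding per cell cannot be told apart.

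Keratins are the intermediate filament proteins of epithelial cells, and each filament pairs a type I with a type II chain. In epidermis the pair Krt5 and Krt14 marks the basal layer, where cells divide. Krt1 and Krt10 replace them as cells leave that layer and differentiate, and Krt2 and Krt77 are type II chains of the suprabasal or embryonic epidermis. Krt6a, Krt6b, Krt16 and Krt17 are low in resting epidermis between hair follicles and are induced in injured or psoriatic skin, Krt75 belongs to the hair follicle, and Krt80 to differentiating epithelia. Barrier formation and injury thus both change which genes of these clusters are active.

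In the RefSeq gene table (GRCm38.p6) each of chromosomes 11 and 15 carries 27 keratin genes. All 12 genes just named are in it, 4 on chromosome 11 and 8 on chromosome 15. In chromosome order, Krt10 is the 7th of the type I genes and Krt14, Krt16 and Krt17 are neighbours at places 24 to 26. On chromosome 15, Krt80 comes first, Krt75, Krt6b, Krt6a and Krt5 follow each other at places 11 to 14, and Krt2, Krt1 and Krt77 at places 19 to 21. Krt18, a type I gene, is counted with those of chromosome 15. The peak positions are on mm9, and no annotation of that build was used here. No peak is therefore assigned to a gene, and positions within the windows are given on mm9 alone. A keratin peak, site or region here is one that lies in a window. How far the keratin genes reach toward the window edges was not determined.

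Grainyhead factors recognise a palindrome with the core AACCGGTT. Promoter sequences, 250 bases before to 50 after the gene start, were at hand in RefSeq (GRCm38.p6) for 6 of the 12 genes (Krt10, Krt14, Krt2, Krt5, Krt75 and Krt77) and for 30 further keratin genes. The core was in none of the 6 promoters and none of the 31 promoters of the other keratin genes, against 0.146% of all 32851 promoters. The looser AACNGGTT, read on both strands, was also in 0 of 6 and 0 of 31, against 2.09% of all promoters, so that 0 matches in so few promoters is near the background. The closest stretches are shown because they are the nearest to the motif that these promoters hold. Capitals mark the 8 letters aligned to AACCGGTT, and both are printed on the minus strand, which the genes are read from. They are from chr15:101574050-101574077 (Krt75) and chr15:101818323-101818350 (Krt2) of GRCm38.p6, positions not comparable with the mm9 positions of the peaks.
Krt75: caaaccaaccAACCGGTGgctttttttt
Krt2: cgcaaatcaaAGCAGGTTctggattgga
The Krt75 stretch shares 7 of 8 letters with the core and begins 163 bases before the gene start. A stretch this close was in 3.87% of all promoters within the 250 bases before the start. The Krt2 stretch shares 6 of 8 letters, as at least 1 stretch does in 43.7% of all promoters. Within the 250 bases before the start of Krt5, Krt14, Krt10 and Krt77 no stretch shares more than 5 letters. A match of letters is not a bound site.

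A difference in peak density between the windows and the rest of their chromosomes could not be shown at these counts. In the type I window E16.5 replicate 1 had 9 peaks, replicate 2 had 4, the depilation list 2 and the imiquimod list 2. That was 6.92 peaks per Mb for replicate 1, 3.08 for replicate 2 and 1.54 for either adult list. The rest of chromosome 11 carried 6.73, 5.52, 2.62 and 3.49 peaks per Mb in the same order. The density ratio of the window to the rest of the chromosome was 1.03 in replicate 1 (exact 95% interval 0.469 to 1.96), 0.557 in replicate 2 (0.151 to 1.43), 0.588 after depilation (0.0709 to 2.14) and 0.44 after imiquimod (0.0532 to 1.6). Each interval includes 1. With bounds moved out by 0.1 Mb the replicate 2 ratio turned to 1.22. All intervals given hold for counting error alone, as if peaks close to each other were independent.

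In the type II window E16.5 replicate 1 had 10 peaks and replicate 2 had 6, while the depilation list had 1 and the imiquimod list 5. The window is 1 Mb long, so these are also its densities per Mb, and the rest of chromosome 15 carried 5.28, 4.16, 2.18 and 3.53. The density ratios were 1.9 (0.904 to 3.51) and 1.44 (0.527 to 3.17) in the E16.5 replicates, 0.459 (0.0116 to 2.58) after depilation and 1.42 (0.457 to 3.34) after imiquimod. Again each interval includes 1. In 3 of the 4 lists the ratio was above 1, and in the depilation list below it on the strength of a single peak. The E16.5 replicate 1 interval lay above 1 in 2 alternatives, with all other autosomes as the background (2.12, 1.01 to 3.89) and with bounds moved out by 0.1 Mb (2.55, 1.45 to 4.18). With bounds drawn in by 0.1 Mb both E16.5 ratios turned below 1, to 0.939 in replicate 1 and 0.298 in replicate 2, and the depilation and imiquimod ratios were 0.575 and 1.06.

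**Figure D1:**
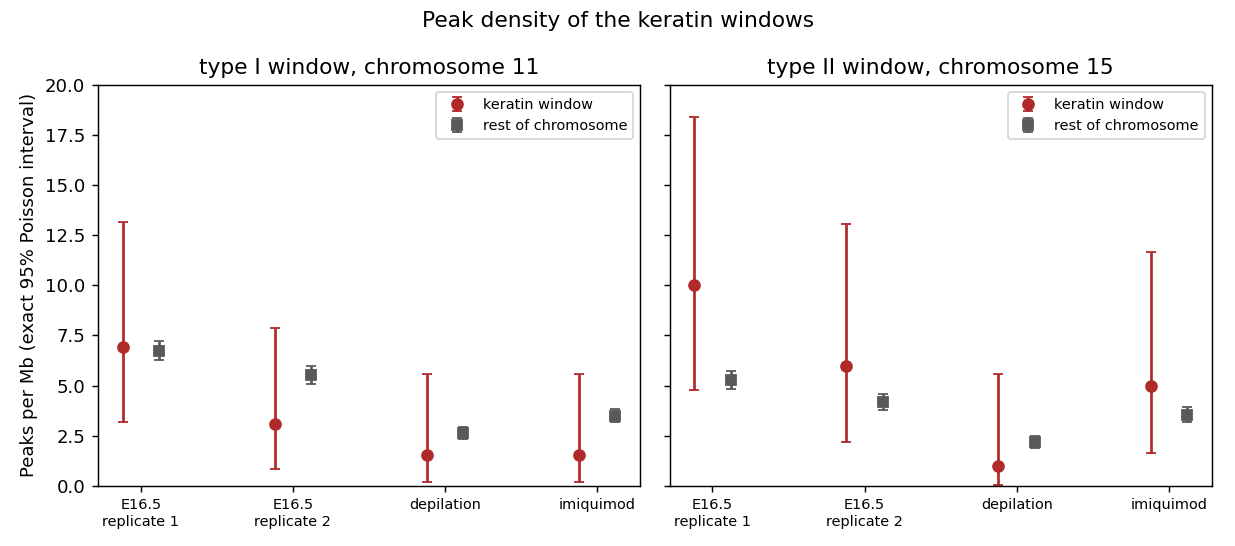
Peaks per Mb (y axis) in each keratin window (circles) and in the rest of its chromosome (squares) for each list (x axis), with exact 95% Poisson intervals of the counts as bars. The window points lie from 1 (depilation, type II) to 10 (E16.5 replicate 1, type II) peaks per Mb, and their intervals reach across the values of the rest of the chromosome.

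The windows were also ranked among stretches of their own length. Chromosome 11 was cut into 89 further stretches of 1.3 Mb, counted outward from the type I window. Of these, 37 held more peaks of E16.5 replicate 1 than the window, 59 more of replicate 2, 48 more of the depilation list and 71 more of the imiquimod list. A further 16 held as many depilation peaks as the window. Of 98 further stretches of 1 Mb on chromosome 15, 15 held more peaks of E16.5 replicate 1, 24 more of replicate 2, 47 more of the depilation list, with a further 33 equal to the window, and 19 more of the imiquimod list. Stretches without a peak numbered 2, 2, 12 and 4 on chromosome 11 and 4, 5, 18 and 4 on chromosome 15, in the order E16.5 replicate 1, replicate 2, depilation and imiquimod.

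Both windows lay between stretches with more E16.5 peaks. The stretch before the type I window held 23 peaks of E16.5 replicate 1 and the one after it 19, against 9 in the window. In replicate 2 they held 16 and 14 against 4. Set against these neighbours, the type I density ratio was 0.429 in replicate 1 (exact 95% interval 0.183 to 0.893) and 0.267 in replicate 2 (0.0683 to 0.757). Both intervals lie below 1. This background was chosen after the data were seen. The neighbours held 9 and 3 depilation peaks against 2, and 7 and 2 imiquimod peaks against 2. Those ratios were 0.333 after depilation (0.0362 to 1.5) and 0.444 after imiquimod (0.0467 to 2.15), and both intervals include 1. The type II window lay between stretches with 16 and 13 peaks of replicate 1, 11 and 10 of replicate 2, 5 and 3 of the depilation list and 9 and 1 of the imiquimod list. The ratio to these neighbours was 0.69 in E16.5 replicate 1 (0.3 to 1.46) and 0.571 in replicate 2 (0.189 to 1.46). It was 0.25 after depilation (0.00563 to 1.86) and 1 after imiquimod (0.268 to 3.21). Each of these type II intervals includes 1.

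**Figure D2:**
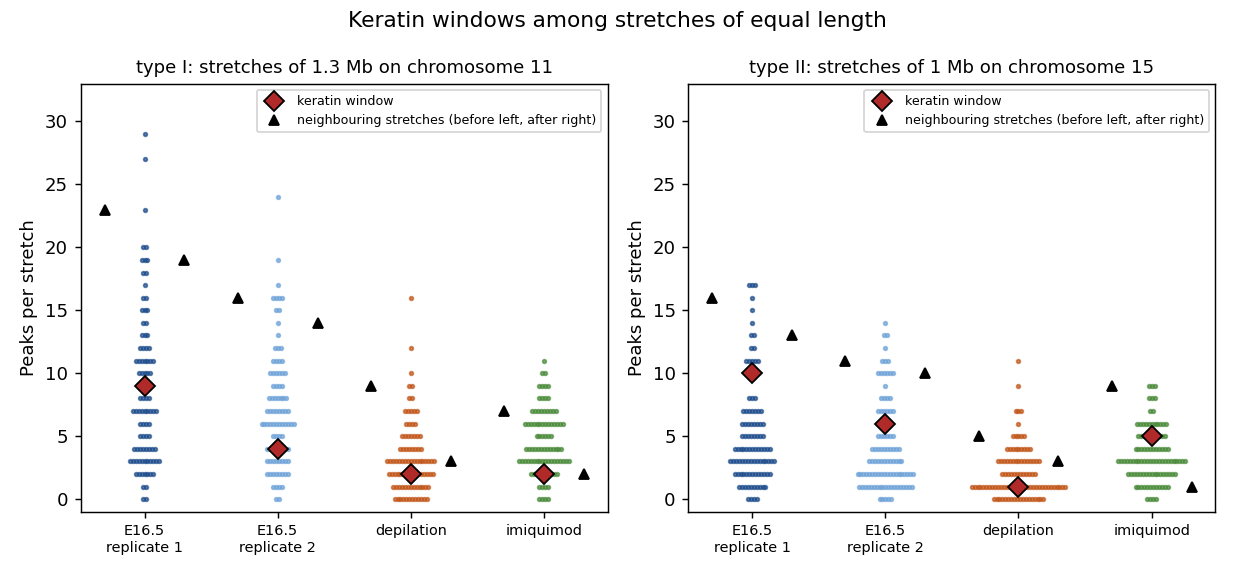
Peaks per stretch of equal length (y axis) for each list (x axis) on chromosome 11 (left, 89 stretches of 1.3 Mb) and chromosome 15 (right, 98 stretches of 1 Mb). Dots are stretches, diamonds the keratin windows and triangles the 2 neighbours of each window, drawn beside the dots that also include them; the type I window, with 9 and 4 peaks in the E16.5 replicates, sits below both of its neighbours in these lists.

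At these counts the recurrence of keratin sites between lists could not be told from that of all regions. Merging peaks that overlap or touch gave 33 regions, 15 in the type I and 18 in the type II window. Of these, 29 carried peaks of 1 list, 2 of 2 lists, 2 of 3 lists and 0 of all 4. Regions with peaks of at least 2 lists made up 4 of 33, or 12.1% (exact 95% interval 3.4 to 28.2), against 20.9% of all 24995 merged regions of the series. This interval includes the share of all regions. Regions with at least 3 lists were 2 of 33, against 9.72%. The 4 recurring regions all joined both E16.5 replicates, but the share of all recurring regions that do so was not counted. The depilation and imiquimod lists shared 0 of 3 and 0 of 7 keratin peaks, against 26.2% of all depilation and 14.9% of all imiquimod peaks, and so few peaks cannot show a difference from these shares.

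The type I window held 1 recurring region, at its lower edge, from 98902362 to 98903119. It was in both E16.5 replicates and in the depilation list. The peak of E16.5 replicate 1 was 758 bp wide with a score of 79.12, that of replicate 2 was 623 bp wide (98902398 to 98903020) with 103.34, and the depilation peak was 162 bp wide (98902490 to 98902651) with 53.37. Scores are comparable only within a list, so the rank of a score in its own list, as a percentile, is used from here on. These peaks stood at percentiles 60.4, 85.3 and 19.8. The depilation peak was near the bottom of its list, while the replicate 2 peak was near the top of its own. The nearest imiquimod peak was 58285 bp from the widest of them. Each was the best scoring type I peak of its list. The centres of these peaks lie 2.57 to 2.74 kb inside the window.

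The type II window held 3 recurring regions. The one at 101930474 to 101931345, near the upper edge, joined both E16.5 replicates with the imiquimod list. The E16.5 replicate 1 peak (872 bp) scored 61.93, percentile 39.5. The replicate 2 peak, at 101930744 to 101931215, scored 95.29, percentile 82.1. The imiquimod peak, at 101930753 to 101931086, scored 98.28, percentile 74.6, and held 42 tags at a 6.17-fold enrichment and a false discovery rate (FDR) of 3.21%, values that the authors' list gives. This was the only region of either window with peaks of E16.5 skin and of imiquimod-treated epidermis.

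The other 2 type II regions carried E16.5 peaks alone, and both lay in the first 100 kb of the window. At 101054415 to 101055087, replicate 1 scored 68.95 (percentile 49.6) and replicate 2, from 101054494 to 101054882, scored 89.57 (percentile 79). At 101084359 to 101085160, replicate 1 scored 75.87 (percentile 57.6) and replicate 2, from 101084597 to 101084931, scored 127.42 (percentile 92.8). The latter was the best scoring type II peak of replicate 2. It was the only one of the 39 keratin peaks above percentile 90, which is 2.56% of them (exact 95% interval 0.0649 to 13.5). Over the whole lists 1162 of 11619 replicate 1 peaks, 969 of 9685 of replicate 2, 482 of 4820 of depilation and 798 of 7974 of imiquimod were above it. The interval includes these shares, so the count shows no difference from them. At all 4 recurring regions the replicate 2 peak had a higher percentile than the replicate 1 peak. How often that holds over the whole lists was not counted, so it is not shown to be particular to these regions. At all 4 the replicate 1 peak was the wider, as replicate 1 peaks are over the whole lists (median 445 bp against 232 bp).

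**Figure D3:**
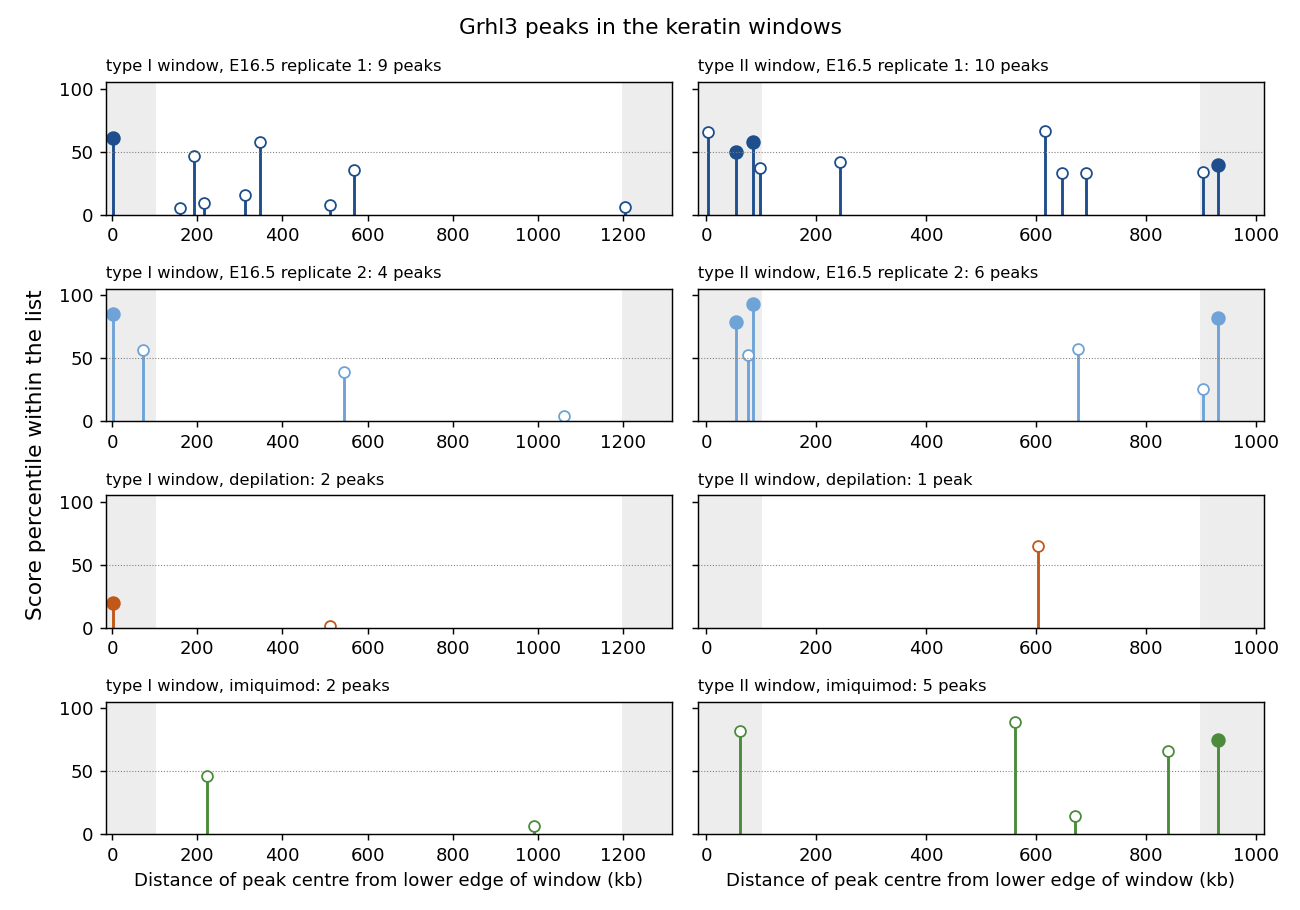
Score percentile within the list (y axis) of each peak against the distance of its centre from the lower edge of the type I (left) or type II (right) window, with 1 row per list. Filled circles are peaks overlapped by a peak of another list, open circles are peaks of 1 list, grey bands are the outer 100 kb and dotted lines the 50th percentile; all filled circles fall in the grey bands.

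All 4 recurring regions lay within 100 kb of a window edge. With the bounds drawn in by 0.1 Mb on both sides, 21 regions were left, 12 in the type I and 9 in the type II window. Each carried 1 peak of 1 list, and none was overlapped by a peak of another list. These 0 of 21 regions were counted after the recurring regions had been seen near the edges. Leaving out the edges fixes the count at 0, so it describes where the recurring regions lie and is not set against the share of other regions. The 21 peaks were 11 of E16.5 replicate 1, 3 of replicate 2, 2 of the depilation list and 5 of the imiquimod list. In the neighbouring stretches, recurring regions numbered 13 of 34 before and 10 of 24 after the type I window, and 9 of 23 before and 4 of 22 after the type II window. Their differences from the windows were not tested.

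**Figure D4:**
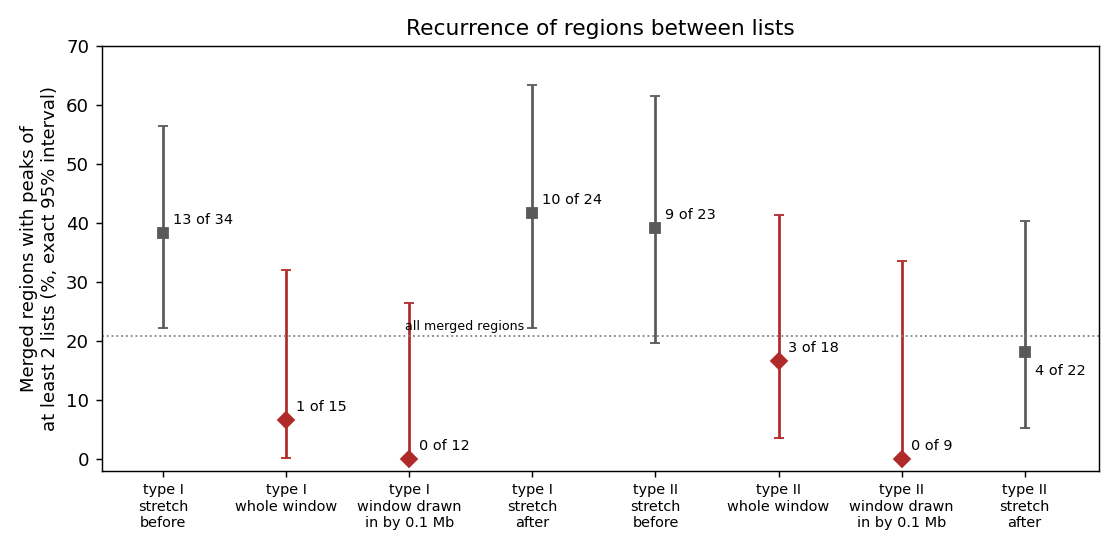
Share of merged regions with peaks of at least 2 lists (y axis, percent) in each keratin window, in the window drawn in by 0.1 Mb and in the stretches of equal length before and after it, with exact 95% intervals as bars and counts beside the points. The dotted line is the 20.9% of all merged regions. The drawn-in windows are at 0 of 12 and 0 of 9, since the recurring regions lie in the outer 100 kb left out there. Their points and bars are therefore not to be read against the line or the neighbouring stretches.

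Counted by list, 4 of the 19 keratin peaks of E16.5 replicate 1 were overlapped by a replicate 2 peak, or 21.1% (exact 95% interval 6.05 to 45.6), against 32.5% of all replicate 1 peaks. Of the 10 replicate 2 peaks 4 were overlapped by replicate 1, or 40% (12.2 to 73.8), against 41.7%. Of the 3 depilation peaks 1 was overlapped by each E16.5 replicate, against 50.6% of the list for replicate 1 and 34.1% for replicate 2. Of the 7 imiquimod peaks 1 was overlapped by each replicate, against 27.9% and 18.6%. With any other list counted, 4 of 19 replicate 1 peaks were overlapped, against 42.7% of that list, 4 of 10 of replicate 2 (44.2%), 1 of 3 of depilation (55.6%) and 1 of 7 of imiquimod (30.2%). The background lies inside the exact 95% interval in each case. These counts are too small to tell a lower recurrence in the whole windows from that of the lists at large.

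Type I peaks of E16.5 replicate 1 were mostly low in score. Those of replicate 2 ranged from percentile 3.96 to 85.3, with a median near the middle of their list. The 9 peaks of E16.5 replicate 1 ranged from percentile 5.25 to 60.4 with a median of 15.5, against a median of 55.6 for the rest of chromosome 11. Besides the region at the edge, they lay at 99058990, 99091400, 99116312, 99212160, 99247277, 99410967, 99467766 and 100104036 (start positions). The strongest of these, at 99247277 to 99247679, scored 76.09 (percentile 57.9), and the next, at 99091400 to 99091939, scored 66.16 (percentile 46.4). Of the 8, 5 were below percentile 16. The 4 peaks of replicate 2 had a median percentile of 48 against 50.2 for the rest of chromosome 11, with 2 of them above percentile 50. The 3 of them away from the edge lay at 98971611 (percentile 56.6), 99443442 (39.4) and 99960115 (3.96).

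Injured epidermis gave 2 type I peaks in each list. The second depilation peak, at 99412410 to 99412590, scored 50.28 and stood at percentile 1.3, near the lowest score that list holds (50.01). It lay 1224 bp from a replicate 1 peak at percentile 7.72, and they did not overlap. The 2 imiquimod peaks were at 99122897 to 99123202, with a score of 67 (percentile 46.4), 31 tags, a 6.18-fold enrichment and an FDR of 5.15%, and at 99889866 to 99890145, with a score of 53.29 (percentile 6.28), 29 tags, a 4.24-fold enrichment and an FDR of 9.43%. The first was the best scoring type I peak of the imiquimod list. Neither reached the median of its list in fold enrichment, 6.65. Of all 17 type I peaks, 4 (23.5%) were above percentile 50, against the 50% that ranking gives over a whole list. By list these were 2 of 9 in E16.5 replicate 1, 2 of 4 in replicate 2 and 0 of 2 in each injury list. The difference from 50% was not tested. The longest stretch of the window with no peak in any list ran for 422 kb, from 99468024 to 99889866.

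The type II peaks had higher median percentiles than the type I peaks in each list. Of the 22, 13 (59.1%) were above percentile 50, near the 50% that ranking gives over a whole list. The 10 peaks of E16.5 replicate 1 had a median percentile of 40.8 (lowest 32.7, highest 66.8), against 48.8 for the rest of chromosome 15. The best of them, at 101616427 to 101616860, scored 87.5 (percentile 66.8) and was in no other list. The 6 replicate 2 peaks had a median of 68.2 (25.9 to 92.8), against 48. The replicates thus lay on opposite sides of their chromosome's median. The 1 depilation peak, at 101603204 to 101603422, scored 68.17 (percentile 64.9), and the nearest peak of another list, the best replicate 1 peak just named, was 13005 bp away.

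The 5 imiquimod peaks of the type II window had a higher median percentile by score than by fold enrichment. Their median score percentile was 74.6 (14.1 to 89.4), against 49.3 for the rest of chromosome 15. Their median fold enrichment percentile was 34.6 (6.83 to 81), against 45.9 for the rest of chromosome 15. With 5 peaks these differences were not tested. The best scoring, at 101561024 to 101561417, scored 142.56 (percentile 89.4) with 52 tags, a 7.82-fold enrichment (percentile 77.1) and an FDR of 3.92%. The peak at 101062089 to 101062446 was alike, with a score of 116.56 (percentile 82.1), 44 tags and an 8.07-fold enrichment (percentile 81). It lay 7002 bp from the recurring E16.5 region at 101054415. In contrast, the peak at 101839797 to 101840354 had the most tags, 63 over 558 bp, and a score at percentile 65.9, but a fold enrichment of 4.91, at percentile 6.83. The last, at 101671506 to 101671754, had 24 tags, a score of 55.02 (percentile 14.1) and a 5.82-fold enrichment, and lay 4662 bp from a replicate 2 peak at 101676416. By fold enrichment the peak at 101062089 ranked above that at 101561024, and the peak at 101671506 above that at 101839797. The order of these 5 peaks was otherwise the same by score and by fold enrichment.

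Type II peaks fell in 3 groups along the window, with a replicate 1 peak at 101242878 and an imiquimod peak at 101839797 between them. Of the 22, 8 lay in the first 100 kb, 4 of E16.5 replicate 1, 3 of replicate 2 and 1 of imiquimod. A further 5 lay in the last 100 kb. Between 101243267 and 101561024 no list had a peak, a gap of 318 kb. The middle group of 7 peaks, from 101561024 to 101690572, drew on all 4 lists: 3 of replicate 1, 1 of replicate 2, 1 of depilation and 2 of imiquimod. None of these 7 overlapped another, and the closest pair was 4662 bp apart.

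Some peaks of 1 list came close to a peak of another. Of the 29 keratin peaks without an overlap, 2 had a peak of another list within 500 bp, 6 within 5000 bp and 10 within 10000 bp. These distances were not counted over the whole lists, so they are not shown to be particular to the keratin sites. The pair within 500 bp was an E16.5 replicate 2 peak at 101904029 to 101904308 (score 55.86) and a replicate 1 peak at 101904572 to 101904964 (score 59.29), with 264 bp between them. The median distance of the 29 to the nearest peak of another list was 24.1 kb, and the largest 158 kb.

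The bounds of the rule left out strong peaks nearby. Just inside the lower type II bound lay a replicate 1 peak at 101004088 (score 86.34, percentile 65.7), and just outside the upper bound one at 102033701 to 102034806 with a score of 230.35, percentile 98, which is above every replicate 1 peak within the windows. The nearest peaks outside the type I bounds were of replicate 2, at 98850185 (percentile 39.4) and 100256296 (percentile 22.2), but stronger ones lay further out. With bounds moved out by 0.1 Mb, the best type I peak stood at percentile 96.6 in replicate 1 and 91.7 in replicate 2. The median type I percentile then rose from 15.5 to 35.5 in replicate 1 and fell from 48 to 39.4 in replicate 2. The last type I peak inside the upper bound, of replicate 1 at 100104036, stood at percentile 5.87.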

How the data were processed

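Deposited peak lists of 4 Grhl3 ChIP-seq libraries were used, 1 list per library. Per the labels' protocols, 28 µg of sonicated chromatin went into each precipitation, and reads were single-end of 50 cycles. The submitters' processing notes name Bowtie 0.12.7, bedtools 2.11.2 and the build mm9. Settings of the caller, and any use of input, were not given in the sources used here. In the lists from E16.5 skin and depilation the authors deposited positions and a peak score of unstated meaning. The imiquimod list gives, per the file headers, a tag count per peak, a fold enrichment (a ratio to the caller's background) and an FDR in percent. Its score column has lost its header in the deposited list and was read as the same kind of score. Library depth is unknown, and peak numbers depend on it and on each list's threshold.

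Peaks were placed by centre, 1-based. Peaks overlapping by at least 1 bp were shared, and overlapping or touching peaks of all lists were merged into regions. Percentiles are ranks within a list. Densities used the chromosome span that the peaks cover. Intervals are exact 95% ones (Poisson, Clopper-Pearson, and conditional binomial for a ratio). No p-value is given, with 1 library per adult condition and neighbouring peaks that are not independent. The code was tested on simulated data and checked against bedtools 2.31.1 (Python 3.11.15, numpy 2.4.6, pandas 2.3.3, scipy 1.17.1, matplotlib 3.10.9).

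The rule for named sites took regions with peaks of at least 3 lists and the best scoring peak of each list in each window; other sites were named after their values were seen. The genes and windows were chosen with earlier results of these data known. Alternatives were the window bounds, background, score minimum, overlap rule, merging distance and each E16.5 replicate left out.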

Additional observations from a re-analysis of the deposited data

Results flagged for a closer look

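The type II window had a density ratio above 1 in both E16.5 lists (1.9 in replicate 1 and 1.44 in replicate 2) and below 1 in the depilation list (0.459). It was also above 1 in the imiquimod list (1.42), so that the adult lists lay on opposite sides of 1. The difference between these groups was not tested. The depilation value rests on 1 peak, and all 4 intervals include 1.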

How the results depend on the processing

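Every depth is unknown and each count is small. With the better scoring 50% of each list, the type I density ratio was 0.403 in E16.5 replicate 1, 0 after depilation and 0 after imiquimod. With the 1000 best peaks of each list it was 0 in all 4 lists, as was the type II ratio in E16.5 replicate 1 and after depilation. Bounds drawn in by 0.1 Mb gave a type II ratio of 0.298 in E16.5 replicate 2. Against the 2 neighbouring stretches, a background added after the data were seen, E16.5 replicate 1 had ratios of 0.429 (type I) and 0.69 (type II). With the bounds also drawn in, the type I ratios were 0.378 and 0.143 and the type II ratios 0.32 and 0.105 in replicates 1 and 2; the neighbours then hold the outer 0.1 Mb of the windows. Of the 80 alternative ratios, 64 stayed within the interval of the main value. This is a weak check, since those intervals are wide. Counting any overlap with the window left every ratio unchanged, and measuring the chromosome from its first base changed the ratios little.

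The 33 merged regions became 14 with the better scoring 50% and 21 with drawn-in bounds. Regions with at least 2 lists fell from 4 to 0 with drawn-in bounds. Leaving out 1 E16.5 replicate gave 18 to 27 regions and 2 with at least 2 lists, since fewer lists can then overlap. Merging peaks up to 500 bp apart gave 32 regions and 5 with at least 2 lists.

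Overlap shares moved only where a score minimum left 1 to 7 peaks. With the better scoring 50% the share was 0% for E16.5 replicate 1 peaks with depilation and with imiquimod, for replicate 2 peaks with depilation, for depilation peaks with either replicate and for imiquimod peaks with replicate 1. With the 1000 best peaks it was 0% for replicate 2 peaks with each other list and for imiquimod peaks with either replicate. The depilation type II median percentile was 74.7 with bounds moved out, and the imiquimod type II median was 34.6 by fold enrichment. No paired analysis was possible because the replicate numbers occur in the E16.5 group alone.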
